A study of Mus musculus with 6 samples.

Results

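The genes described here are 42 genes of the heat shock chaperone system of the mouse cytosol and mitochondria, with 2 transcription factors of the heat shock response among them. They were chosen by name, and their rows were found by matching the Entrez Gene numbers of the table to mouse symbols. All 42 were among the 14883 genes of the table, and 40 had enough counts to be tested among 12377 genes. Hspa1a and Hspb1 did not, with at most 7 and 8 counts in a library.

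RNA was sequenced from B16F10luc2 cells, a line derived from mouse B16 melanoma. Every culture was grown on plates with an elastic bottom in DMEM with 10% serum at 37 °C, 21% oxygen and 5% carbon dioxide. In 3 samples (static) the plates were left unstretched, and in 3 samples (stretch) they underwent cyclic equibiaxial elongation of 15% for 24 h at 15 cycles per minute, with stretch and relaxation of equal duration. Whether replicates came from separate cultures is not stated in the labels; the p-values therefore reflect the spread among the 6 libraries alone, and that spread may be technical.

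Library totals ran from 19469286 to 36351400 counts. The 7 melanocyte and melanoma markers summed to between 22410 and 24790 CPM (the usual rate of counts relative to library size, here on TMM-scaled sizes) in static libraries and between 19863 and 20454 CPM in stretched ones; 3 of them (Pmel, Tyrp1 and Dct) fell, and Mitf rose (log2 fold change 0.37). Marker sums of fibroblasts were 13.0 to 17.9 and 15.7 to 17.2 CPM in the 2 groups, and those of leukocytes, endothelium and epithelium were at most 2.50 CPM. Ptprc, Cd3e, Cdh5, Kdr, Epcam, Krt5, Krt14, Lum and Thy1 had no row. In bulk RNA, fewer cells of one state and less RNA per cell cannot be told apart.

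Chaperones bind unfolded or partly folded proteins and let them fold, move or be degraded without clumping. HSP70 proteins do so in cycles of ATP hydrolysis that J proteins start and nucleotide exchange factors (HSP110 and BAG proteins) end. HSP90 takes over late folding states of kinases and hormone receptors, and closed barrels, CCT in the cytosol and HSP60 with HSP10 in mitochondria, enclose a whole chain. When unfolded proteins pile up, the factor HSF1 is released and switches on the inducible members, above all Hspa1a, Hspa1b, Hsph1, Dnajb1 and Hspb1. Tumour cells, melanoma included, are known to depend on HSP90 and HSP70.

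The chaperone genes did not move one way in stretched cells, and most changes were small. The mitochondrial protease gene Lonp1 and the mitochondrial HSP70 gene Hspa9 fell by 1.88-fold and 1.42-fold, the largest changes of the set. The stress-inducible HSP90 gene Hsp90aa1, the mitochondrial barrel genes Hspd1 and Hspe1, the ribosome-bound HSP70 gene Hspa14 and 6 of 8 CCT subunit genes rose by 1.09-fold to 1.23-fold. All 3 BAG genes of the set and the small heat shock protein gene Hspb8 fell. The constitutive chaperones Hsp90ab1 and Hspa8 and the regulator Hsf1 did not pass the test.

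Of the 40 tested members, 26 were called at an adjusted p under 0.05 (edgeR's quasi-likelihood test, Benjamini-Hochberg adjustment over all genes tested), 16 higher and 10 lower under stretch. Among all tested genes 50.9% were called, 24.9% higher and 25.9% lower. The 3 static and 3 stretched values did not overlap for 29 of the 40 members, against 58.5% of all tested genes. The median log2 fold change was 0.06 over the members and 0.00 over all tested genes, and the median size regardless of sign was 0.14 against 0.18. Called members that rose did so by 1.07-fold to 1.23-fold (median 1.13), and those that fell by 1.08-fold to 1.88-fold (median 1.18). Against a null of a 1.2-fold change, edgeR's glmTreat called 0 members higher (0 at an unadjusted p under 0.05) and 2 lower, Lonp1 and Hspa9, where 12.9% of all tested genes were called. The plot of fold changes by family shows these directions.

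**Figure D1:**
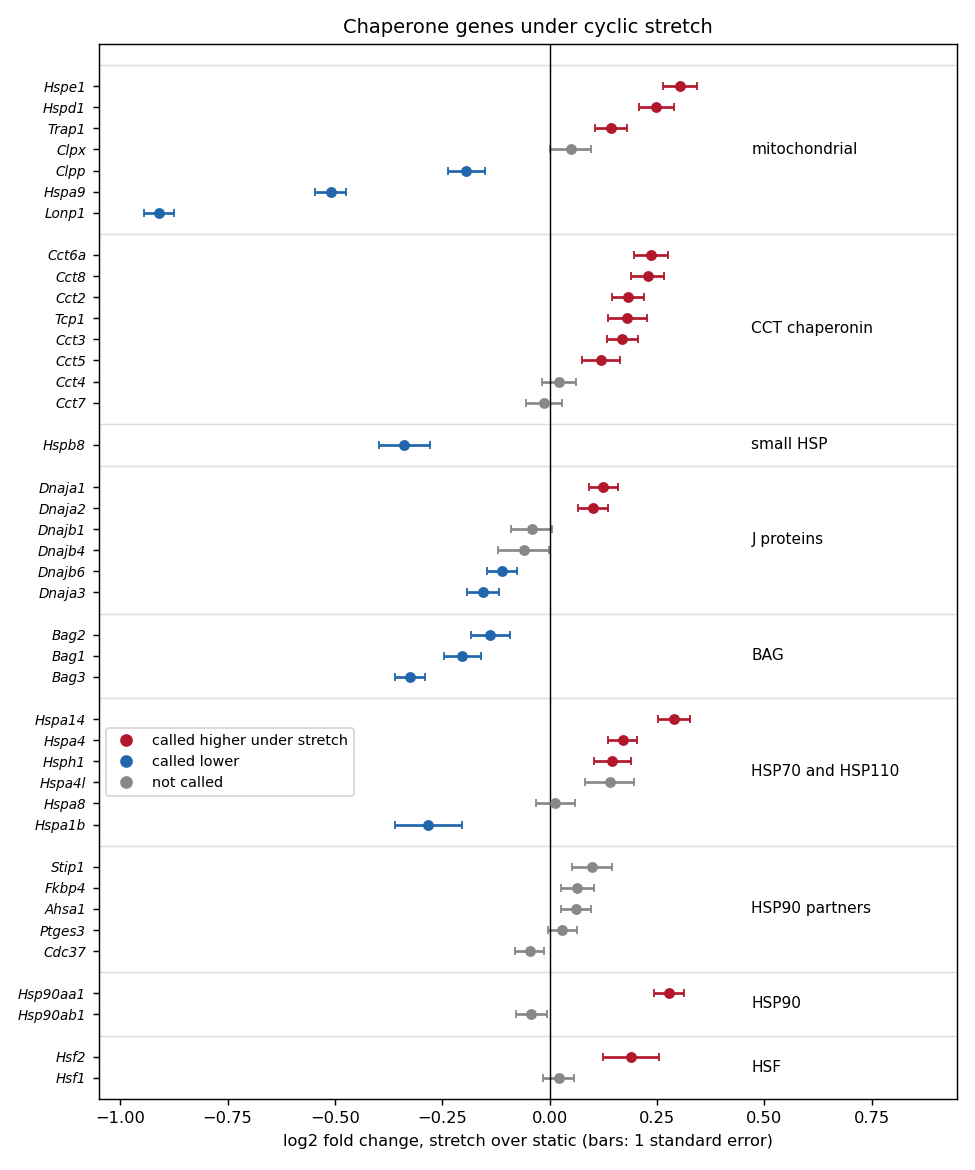
Log2 fold change of each of the 40 tested chaperone genes, stretch over static (x axis, bars 1 standard error), grouped by family and coloured by the call at an adjusted p under 0.05. Lonp1 (-0.91) and Hspa9 (-0.51) lie far left of the rest, which range from -0.34 to 0.30.

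The split of calls depended on scaling between libraries. Scaled by library size alone, 21 members were called higher and 8 lower, a share of higher calls of 72.4% against 61.5%, where 33.3% of all genes were called higher and 19.4% lower. That scaling shifted the median of all genes by 0.06 on the log2 scale. The direction of the calls also moved with base composition: the longest transcripts of the 16 members called higher had a median GC content of 46.6%, those of the 10 called lower 53.8%, and the same medians over all called genes were 46.6% and 52.8%. With an offset for GC content and length in each library, 15 members were called higher and 8 lower, against 22.6% and 25.1% of all genes. The part of GC content in the members' changes was not tested beyond this offset.

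Heat shock factors bind repeats of the unit nGAAn in alternating orientation. Promoters of 36 members (RefSeq, GRCm38.p6, 250 bases before to 50 after a start site) were searched on both strands for 3 units in a row, GAANNTTCNNGAA or TTCNNGAANNTTC, and for 2 units, GAANNTTC or TTCNNGAA; the other 6 members, Hsf1, Hspa9, Cct4, Hsp90ab1, Hsp90aa1 and Hspa8, were not searched. Each 3-unit match contains 2-unit matches. A 3-unit match was present in 4 members, Hspd1, Hspe1, Hsph1 and Dnajb6 (11.1% of the 36), in 0.662% of the 27025 genes with a promoter and in 0.603% of the 32851 windows. A 2-unit match was present in 17 members (47.2%), in 17.0% of genes and in 15.1% of windows. Of the 4 members with a 3-unit match, Hspd1, Hspe1 and Hsph1 rose and Dnajb6 fell. The windows of Hspd1 and Hspe1 overlap, and the same matched run is counted for both, so they do not hold separate sites. A match describes the letters and does not show that a factor binds there. Of the 17 with a 2-unit match, 7 rose, 5 fell, 3 were not called and 2 were not tested. Both counts are to be read against all 40 tested members, of which 16 rose and 10 fell. Among all tested genes 24.9% were called higher and 25.9% lower. The 2-unit matches of Clpp, which fell, of the uncalled Cdc37, Fkbp4 and Dnajb4 and of the untested Hspb1 are not printed. These 30-base stretches show the 3-unit matches and, for comparison, 2-unit matches of 4 genes with low or falling mRNA and of the 4 others that rose (Dnaja1, Cct2, Cct5 and Cct6a), each read on the gene's own strand with the matched bases in capitals.
Hspe1 (chr1:55088053-55088082, plus strand): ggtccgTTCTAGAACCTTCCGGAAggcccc
Hsph1 (chr5:149636279-149636308, minus strand): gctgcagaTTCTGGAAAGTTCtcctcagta
Dnajb6 (chr5:29735844-29735873, plus strand): agctccgaGAATCTTCCGGAAcgctagacc
Hspa1b (chr17:34959324-34959353, minus strand): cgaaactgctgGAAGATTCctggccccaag
Hspa1a (chr17:34972242-34972271, minus strand): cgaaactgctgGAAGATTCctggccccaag
Bag3 (chr7:128523603-128523632, plus strand): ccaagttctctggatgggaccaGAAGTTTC
Hspb8 (chr5:116422844-116422873, minus strand): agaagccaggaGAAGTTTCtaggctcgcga
Dnaja1 (chr4:40722333-40722362, plus strand): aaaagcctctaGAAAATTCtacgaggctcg
Cct2 (chr10:117063399-117063428, minus strand): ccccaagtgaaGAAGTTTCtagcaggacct
Cct5 (chr15:31601862-31601891, minus strand): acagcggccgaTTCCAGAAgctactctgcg
Cct6a (chr5:129787369-129787398, plus strand): gcgtaagacttTTCGAGAAgaccccgcaga
In Hspe1 the capitals are a run of 18 bases that holds 2 overlapping 3-unit matches, 89 to 72 bases before the start site. Hspd1 and Hspe1 lie head to head, with start sites at 55087932 and 55088148 on chromosome 1, 216 bases apart, and the run lies between them, inside an annotated exon of a longer Hspd1 transcript. The match of Dnajb6 lies 46 to 34 bases before its start site in RefSeq, inside an exon that GENCODE annotates to Dnajb6, and those of Hsph1, Bag3, Hspb8 and Cct6a lie past the start sites. The match of Cct2 lies 42 to 35 bases before a start site at 117063375, and the window at its other start site, 117063852, held no match. The printed stretch of Dnaja1 overlaps annotated exons of Dnaja1 and Gm6297, and that of Cct5 an exon of Fam173b. Hspa1a and Hspa1b have the same 30 bases, 104 to 97 bases before the start for the capitals, and their 250 upstream bases differ at 3 positions.

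Hsf1, the master regulator of the heat shock response, is controlled mainly at the protein level. Its mRNA was at 89.2, 85.4 and 89.1 CPM in static libraries 1, 2 and 3 and at 88.1, 89.8 and 90.2 CPM in stretched libraries 1, 2 and 3. The groups overlapped (log2 fold change 0.02, SE 0.037, adjusted p = 0.657). Hsf1 was called higher once GC content and length were offset (0.09, adjusted p = 0.0483). Hsf2, a related factor that forms mixed trimers with HSF1, was at 30.3, 25.3 and 30.7 CPM in static and 33.3, 33.8 and 32.0 CPM in stretched libraries, with no overlap. It rose by 0.19 on the log2 scale (SE 0.064, adjusted p = 0.0235). That call was lost with the GC and length offset (log2 fold change 0.03), and without static library 2 (adjusted p = 0.0672), stretched library 1 (0.0791) or stretched library 2 (0.0816).

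Of the 2 cytosolic HSP90 genes, the stress-inducible one rose and the constitutive one did not pass the test. Hsp90aa1 (Entrez Gene 15519; chromosome 12, 110691036 to 110696395) was at 1942, 2008 and 2005 CPM in static and at 2330, 2416 and 2475 CPM in stretched libraries. Every stretched library lay above every static one, by 1.21-fold on average (log2 fold change 0.28, SE 0.035, adjusted p = 1.22e-05). Hsp90ab1 (Entrez Gene 15516; chromosome 17, 45567778 to 45573261) was at 3664, 3741 and 3543 CPM in static and at 3448, 3660.2 and 3525 CPM in stretched libraries. These values overlapped (log2 fold change -0.04, SE 0.036, adjusted p = 0.349). The ratio of Hsp90aa1 to Hsp90ab1 within a library, which does not depend on scaling, rose from a mean log2 ratio of -0.88 ± 0.050 to -0.56 ± 0.045 (SD, n = 3 per group), a difference of 0.32 with no overlap. The exact permutation test of this difference gave p = 0.1, the smallest that 3 against 3 can give. Of the letters of the longest Hsp90aa1 transcript, read in words of 31 bases, 62.9% of words also occur in transcripts of other genes, mostly pseudogenes, so its estimated counts carry added uncertainty.

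The 5 partners of HSP90 in the set showed no called change. Stip1 links HSP70 to HSP90, Ahsa1 stimulates its ATPase, Cdc37 brings kinases to it, Ptges3 (p23) holds the closed state, and Fkbp4 is a prolyl isomerase of steroid receptor complexes. Fkbp4, the most abundant, was at 891, 940.5 and 851 CPM in static and at 921, 928 and 956 CPM in stretched libraries (log2 fold change 0.06, SE 0.039, adjusted p = 0.183). The other 4 had log2 fold changes from -0.05 (Cdc37) to 0.10 (Stip1, adjusted p = 0.0928). At an unadjusted p under 0.05, edgeR's quasi-likelihood test gave 0 of the 5, and DESeq2 and limma-voom gave 1 each; after adjustment all of them called 0. Scaling by library size alone called 4 of the 5 higher (all but Cdc37). Stip1 and Fkbp4 were both called higher with the GC and length offset (log2 fold changes 0.14 and 0.14) and without static library 2 (0.16 and 0.10), and Stip1 also with upper quartile factors (0.12).

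The HSP70 and HSP110 genes split by member. The inducible HSP70 genes were low. Hspa1a had 3, 0 and 0 counts in static and 7, 3 and 0 in stretched libraries and was not tested. Hspa1b, its near-identical neighbour on chromosome 17 (34956429 to 34959238), was at 18.3, 16.6 and 20.8 CPM in static and at 15.8, 15.0 and 15.3 CPM in stretched libraries. All 3 stretched values lay below all static ones, and Hspa1b fell by 0.28 on the log2 scale (SE 0.078, adjusted p = 0.00727). The call was lost with the GC and length offset (log2 fold change -0.18, adjusted p = 0.054). Of the words of Hspa1b, 67.5% also occur in Hspa1a, so the split of reads between them is uncertain, and summed to one row they gave a log2 fold change of -0.27 (adjusted p = 0.00859).

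Hspa8, the constitutive HSP70 and one of the most abundant chaperone mRNAs, was at 3774, 4133 and 3589 CPM in static and at 3777, 3913 and 3909.8 CPM in stretched libraries. The stretched values lay within the static range (log2 fold change 0.01, SE 0.045, adjusted p = 0.828). Of the 31-base words of Hspa8, 59.7% also occur in transcripts of other genes, so its estimated counts carry added uncertainty. Hspa14, an HSP70 that works with a J protein at the ribosome, was at 75.7, 75.2 and 75.5 CPM in static and at 92.9, 89.2 and 94.5 CPM in stretched libraries. The static values were nearly the same in each library and all stretched values were higher (log2 fold change 0.29, SE 0.037, adjusted p = 1.51e-05).

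The HSP110 genes encode exchange factors that recharge HSP70 with ATP. Hspa4 was at 602, 616 and 581 CPM in static and at 677, 679.6 and 667 CPM in stretched libraries and rose by 0.17 on the log2 scale (SE 0.034, adjusted p = 0.000801). Hsph1, the heat-inducible one, was at 209, 221 and 199.7 CPM in static and at 234, 239.6 and 221 CPM in stretched libraries. It rose by 0.15 (SE 0.043, adjusted p = 0.0106), although its lowest stretched and highest static libraries nearly touched, and without stretched library 2 the call was lost (adjusted p = 0.0696). Hspa4l, at 22.6 to 24.7 CPM in static and 24.9 to 27.0 CPM in stretched libraries, missed the threshold (log2 fold change 0.14, adjusted p = 0.0528). It was called higher with a filter at 5 CPM (adjusted p = 0.0442), library-size scaling (0.0135), upper quartile factors (0.0352), and without static library 3 (0.0281) or stretched library 3 (0.0451), while the offset for GC content and length turned its value to -0.05. The ratios of Hsph1 and of Hspa4l to Hspa4 within a library overlapped between the groups, with differences of -0.03 each on the log2 scale.

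All 3 BAG genes of the set fell, where 25.9% of all genes were called lower. Among BAG genes outside the set, Bag4 rose by 0.30 on the log2 scale, Bag6 fell by 0.19 and Bag5 was not called. BAG proteins release ADP from HSP70, and each ties it to another route: BAG1 to the proteasome, BAG3 to small heat shock proteins and selective autophagy. Bag3 (Entrez Gene 29810; chromosome 7, 128523583 to 128546981) was at 93.0, 92.1 and 93.3 CPM in static and at 75.0, 73.9 and 73.3 CPM in stretched libraries. The groups were far apart compared with their spread, with a fall of 0.32 on the log2 scale (SE 0.036, adjusted p = 3.14e-06). Bag1 was at 126, 133 and 121 CPM in static and at 106, 110.3 and 114 CPM in stretched libraries, with no overlap and a fall of 0.20 (SE 0.042, adjusted p = 0.00101). Bag2, an inhibitor of the ubiquitin ligase CHIP, was at 53.7, 51.6 and 51.7 CPM in static and at 49.8, 47.2 and 45.2 CPM in stretched libraries. Its fall of 0.14 (SE 0.046, adjusted p = 0.0204) was not called with DESeq2 (adjusted p = 0.052), scaling by library size alone (0.18), the GC and length offset (0.0746), or without static library 1 (0.0886), stretched library 2 (0.0604) or stretched library 3 (0.0886). Hspb8, the small heat shock protein that BAG3 carries to HSP70, fell as well: it was at 36.5, 40.2 and 33.9 CPM in static and at 28.9, 29.5 and 28.6 CPM in stretched libraries. The groups did not overlap (log2 fold change -0.34, SE 0.060, adjusted p = 0.00025). Hspb1, the widely expressed heat-inducible small heat shock protein gene, had 1, 1 and 2 counts in static and 8, 1 and 3 in stretched libraries, too few to test.

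J proteins hand clients to HSP70 and trigger its ATPase. Of 6 genes, 2 rose and 2 fell, near the 24.9% and 25.9% of all genes; with the GC and length offset 0 were called higher and 2, Dnaja3 and Dnajb4, lower. Dnaja1, the most abundant, was at 355, 359 and 366 CPM in static and at 385, 392 and 401 CPM in stretched libraries, without overlap (log2 fold change 0.13, SE 0.034, adjusted p = 0.00644). Dnaja2, its close relative, was at 182, 183 and 177 CPM in static and at 192, 196 and 194 CPM in stretched libraries (log2 fold change 0.10, SE 0.034, adjusted p = 0.0226). Neither of these increases was called with the GC and length offset (log2 fold changes 0.01 and 0.01). Dnaja2 was also not called without any 1 of static libraries 1 and 3 and stretched libraries 1, 2 and 3, with adjusted p of 0.0533 to 0.0888.

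Dnaja3, the J protein of the mitochondrial matrix and partner of the HSP70 encoded by Hspa9, was at 69.5, 70.2 and 71.1 CPM in static and at 62.2, 63.6 and 63.8 CPM in stretched libraries. It fell by 0.15 on the log2 scale (SE 0.037, adjusted p = 0.00298) with no overlap. Dnajb6, a suppressor of protein aggregation, fell by 0.11 (SE 0.035, adjusted p = 0.0166), from 128 to 133 CPM in static to 120.7 to 121 CPM in stretched libraries. That call was lost with scaling by library size alone (adjusted p = 0.217), the GC and length offset (0.117), and without static library 1 (0.0577), stretched library 1 (0.0568) or stretched library 2 (0.0528). Of the 31-base words of Dnajb6, 37.7% also occur in transcripts of other genes. Dnajb1, the heat-inducible cytosolic J protein, was at 53.7 to 59.2 CPM in static and at 51.9 to 56.1 CPM in stretched libraries (log2 fold change -0.04, adjusted p = 0.479), and Dnajb4 was at -0.06 on that scale (adjusted p = 0.412). Dnajb4 was called lower once GC content and length were offset (-0.16, adjusted p = 0.0309); its span overlaps Fubp1, at 0.48. The ratio of Dnajb1 to Dnaja1 within a library was lower in all 3 stretched libraries than in any static one, by 0.17 on the log2 scale (exact permutation p = 0.1).

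CCT is a barrel of 8 different subunits that folds actin and tubulin. The mRNAs of 6 of its 8 subunits were called higher, where 24.9% of all genes were. Those of Cct4 and Cct7 did not pass the test. The median log2 fold change was 0.17 over the 8 genes against 0.00 over all genes. With the GC and length offset 5 were called higher, against 22.6% of all genes. The test against a 1.2-fold null called 0 (0 at an unadjusted p under 0.05). Cct6a was at 361, 385 and 347 CPM in static and at 435, 427 and 426 CPM in stretched libraries (log2 fold change 0.24, SE 0.039, adjusted p = 0.000158). On the chromosome it overlaps Psph, a serine synthesis enzyme gene with a log2 fold change of -0.78; strand is not known here, so reads of the shared stretch cannot be told apart. Cct8 was at 402, 421 and 387 CPM in static and at 462, 485 and 469 CPM in stretched libraries (log2 fold change 0.23, SE 0.038, adjusted p = 0.00016). Cct2 was at 457, 488 and 449.9 CPM in static and at 520.4, 536 and 526 CPM in stretched libraries (log2 fold change 0.18, SE 0.037, adjusted p = 0.000878). In these 3 genes each stretched library lay above each static one.

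Cct3 and Tcp1 rose by 0.17 and 0.18 on the log2 scale (adjusted p = 0.00122 and 0.00401). The call of Tcp1 was lost with the GC and length offset (log2 fold change 0.08, adjusted p = 0.167), and its span overlaps Mrpl18, which had a log2 fold change of 0.33. Cct5 rose by 0.12 (adjusted p = 0.034), a call lost without static library 1 (adjusted p = 0.0578), static library 3 (0.127), stretched library 2 (0.123) or stretched library 3 (0.12). Cct7, the most abundant subunit mRNA, was at 1025, 1091 and 965 CPM in static and at 1006, 1009.7 and 1036 CPM in stretched libraries, all within the static range (log2 fold change -0.01, SE 0.042, adjusted p = 0.805). For Cct4 the log2 fold change was 0.02 (SE 0.039, adjusted p = 0.66). Among the static libraries, library 2 was the highest for 8 of 8 subunit mRNAs and library 3 the lowest for 8 of 8. These shares were 38.3% and 35.4% among all tested genes. Library 2 was also the highest for 25 of the 40 tested members (62.5%), so that position was not particular to CCT. The plot of cytosolic genes by library shows this order.

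**Figure D2:**
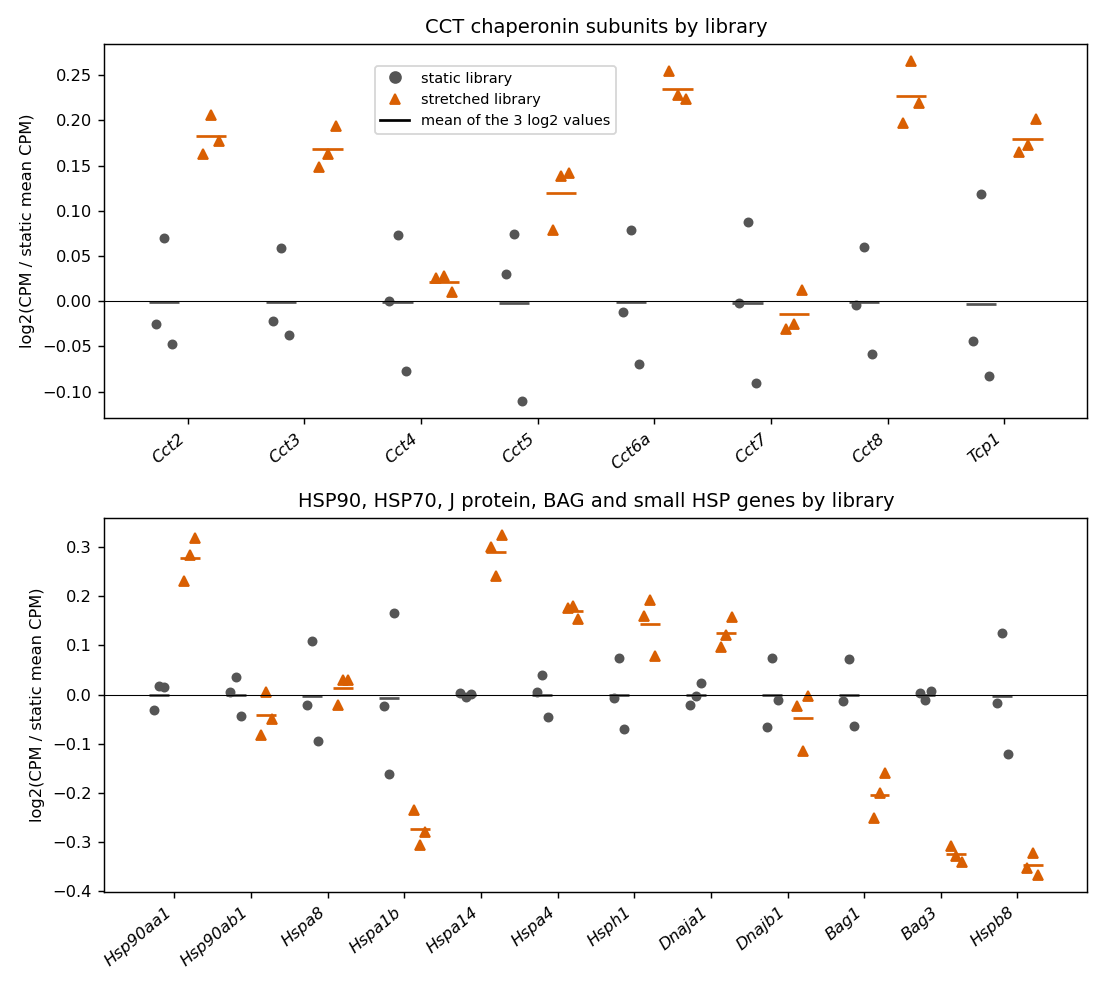
CPM of cytosolic chaperone genes in each library as log2 of the ratio to the mean of the 3 static libraries (y axis), for the 8 CCT subunit genes (upper panel) and 12 other genes (lower panel); circles are static libraries, triangles stretched libraries, each drawn in the order 1, 2, 3, and bars the mean of 3 log2 values. Static library 2 is the highest static library for every CCT gene, and the stretched values of Cct4 and Cct7 lie among the static ones.

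The mitochondrial set leaves out Dnaja3, which is counted with the J proteins. Of the 7 genes in the set, 3 were called higher, 3 lower and 1 was not called. Among all genes 24.9% were called higher and 25.9% lower. These 7 genes include the 2 largest decreases among all members. The barrel HSP60, encoded by Hspd1, and its lid HSP10, encoded by Hspe1, both rose. Hspd1 (Entrez Gene 15510; chromosome 1, 55077833 to 55088243) was at 1229.6, 1300.5 and 1161 CPM in static and at 1448, 1500.2 and 1438 CPM in stretched libraries (log2 fold change 0.25, SE 0.041, adjusted p = 0.000144). Hspe1 (Entrez Gene 15528; chromosome 1, 55088148 to 55091317) was at 223, 231 and 228 CPM in static and at 266, 286 and 292 CPM in stretched libraries (log2 fold change 0.30, SE 0.040, adjusted p = 1.73e-05). Neither gene had overlapping groups, and the ratio of Hspd1 to Hspe1 within a library did overlap, with a difference of -0.05 on the log2 scale. The 18 matched bases printed above lie between the start sites of this pair. Of the words of Hspd1, 55.8% occur in other genes' transcripts, chiefly pseudogenes, and for Hspe1 the share is 14.1%.

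Lonp1 encodes the main soluble protease of the mitochondrial matrix, which also has chaperone activity. It (Entrez Gene 74142; chromosome 17, 56614297 to 56626903) was at 539, 519.97 and 521 CPM in static and at 280.5, 273 and 287 CPM in stretched libraries. Every stretched library lay far below every static one, with a fall of 0.91 on the log2 scale (SE 0.035, adjusted p = 9.83e-11). This change was larger in size than that of 97.45% of all tested genes. Its value stayed between -0.93 and -0.81 over the alternatives tried, and no 31-base word of its transcript is shared with another gene.

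Hspa9 encodes mortalin, the mitochondrial HSP70 that pulls proteins through the import channel and folds them. Its mRNA (Entrez Gene 15526) was at 819, 835 and 775 CPM in static and at 563, 575 and 567 CPM in stretched libraries, 1.42-fold lower and with no overlap (log2 fold change -0.51, SE 0.036, adjusted p = 3.64e-08). The ratio of Hspa9 to the cytosolic Hspa8 fell by 0.53 on the log2 scale, from -2.24 ± 0.057 to -2.77 ± 0.020 (SD, n = 3 per group). Clpp, the proteolytic chamber of the ClpXP protease, was at 55.2, 59.5 and 57.6 CPM in static and at 49.7, 49.9 and 51.1 CPM in stretched libraries and fell by 0.19 (SE 0.042, adjusted p = 0.00148). Clpx, the unfolding ring of the same protease, was at 34.9, 37.7 and 37.8 CPM in static and at 38.7, 37.4 and 37.9 CPM in stretched libraries, with overlap (log2 fold change 0.05, adjusted p = 0.411). Hspa9, Clpp and Clpx were picked for full values after these were seen.

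Trap1, the mitochondrial HSP90, was at 84.1, 88.6 and 84.3 CPM in static and at 93.9, 94.99 and 94.5 CPM in stretched libraries and rose by 0.14 on the log2 scale (SE 0.037, adjusted p = 0.00487). Hspd1, Hspe1, Lonp1 and Clpp are commonly read as markers of the mitochondrial unfolded protein response. In these libraries the first 2 rose and the other 2 fell. All 6 called mitochondrial genes kept their call in each alternative except the test against a 1.2-fold null, which kept Lonp1 and Hspa9.

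**Figure D3:**
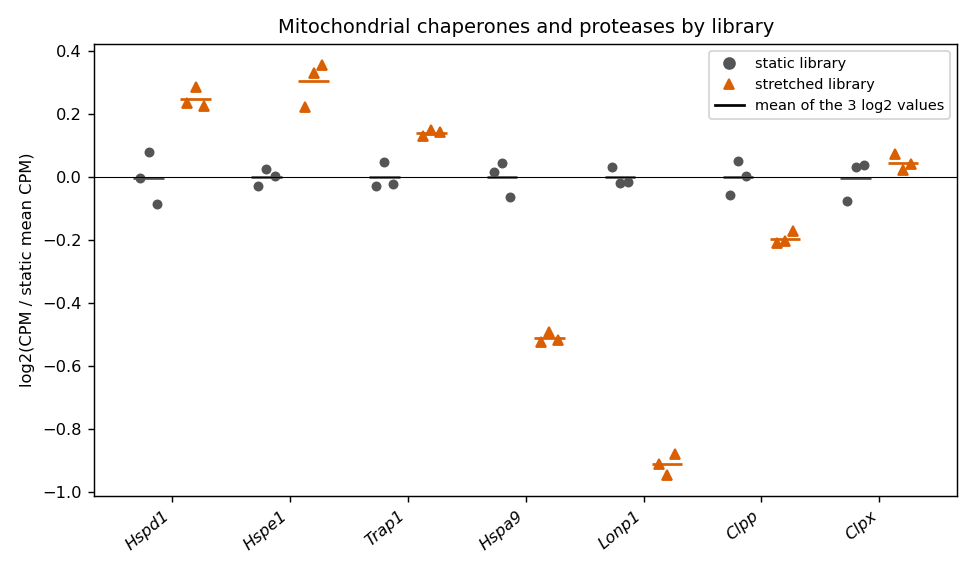
CPM of the 7 mitochondrial genes in each library as log2 of the ratio to the mean of the 3 static libraries (y axis); circles are static libraries, triangles stretched libraries, each drawn in the order 1, 2, 3, and bars the mean of 3 log2 values. Stretched values of Lonp1 and Hspa9 lie near -0.91 and -0.51, and those of Hspd1, Hspe1 and Trap1 lie above 0.

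Within-library ratios of 13 chaperone pairs, formed from counts with 0.5 added, gave a view that does not depend on scaling. The groups did not overlap for 7 pairs, 3 with a higher and 4 with a lower ratio under stretch. Lonp1 relative to Clpp fell by 0.72 on the log2 scale, so the 2 matrix proteases did not fall in step. Clpx relative to Clpp rose by 0.24, the unfolding ring relative to its own chamber. Trap1 relative to Hsp90ab1 rose by 0.18, and Hsf1 relative to Hsf2 fell by 0.18. Each of the 7 had an exact permutation p of 0.1, the smallest possible, which is 0.186 after adjustment over the 13 pairs, so this test cannot reach 0.05 with 3 libraries per group.

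**Figure D4:**
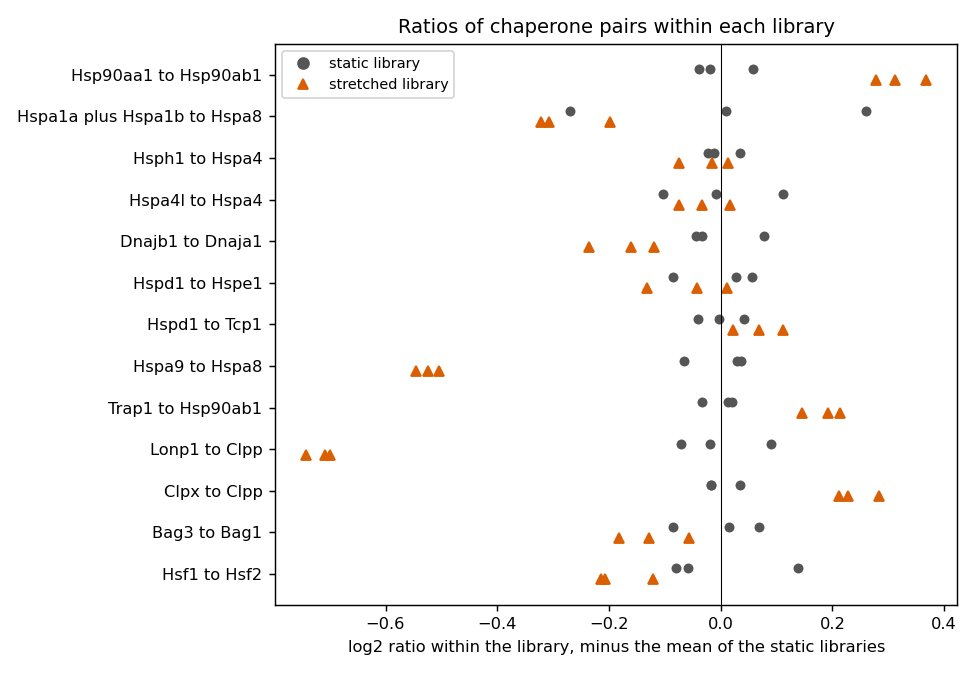
Log2 ratio of 13 chaperone pairs within each library (x axis), minus the mean of the static libraries; circles are static and triangles stretched libraries. The pairs Lonp1 to Clpp and Hspa9 to Hspa8 lie lowest under stretch, at differences of -0.72 and -0.53, and Hsp90aa1 to Hsp90ab1 highest, at 0.32.

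Levels of different genes were compared per kilobase of the longest annotated transcript, as CPM per kilobase. In static cells the order began with Hsp90ab1 (1448), Hspa8 (1213), Hsp90aa1 (605), Hspd1 (508) and Fkbp4 (334). It ended with Hspa1b (6.63), Hsf2 (6.36), Dnajb4 (6.003) and Hspa4l (2.49). The order depends on the length used, and which transcript is expressed was not examined. Hspa4l, with a longest transcript of 9479 bases, had a static mean of 23.6 CPM, and Hspa1b, with 2803 bases, 18.6 CPM. Under stretch Hsp90ab1 (1406), Hspa8 (1224), Hsp90aa1 (734) and Hspd1 (603) kept the first 4 places. Hspa9 went from 266 to 186 and Lonp1 from 121 to 64.2 CPM per kilobase, while Hspe1 went from 236 to 292. The 42 genes together made up 2.05%, 2.14% and 1.99% of TMM-scaled library size in static and 2.09%, 2.15% and 2.14% in stretched libraries, which overlapped; as shares of raw counts (2.00%, 2.07% and 1.97% against 2.14%, 2.20% and 2.18%) they did not. The HSP90 pair took 0.554% to 0.575% in static and 0.578% to 0.608% in stretched libraries on the TMM scale, with no overlap on either scale. The 7 mitochondrial genes took 0.286% to 0.307% and 0.274% to 0.282%, without overlap, whereas their shares of raw counts (0.284% to 0.297% and 0.28% to 0.288%) overlapped.

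**Figure D5:**
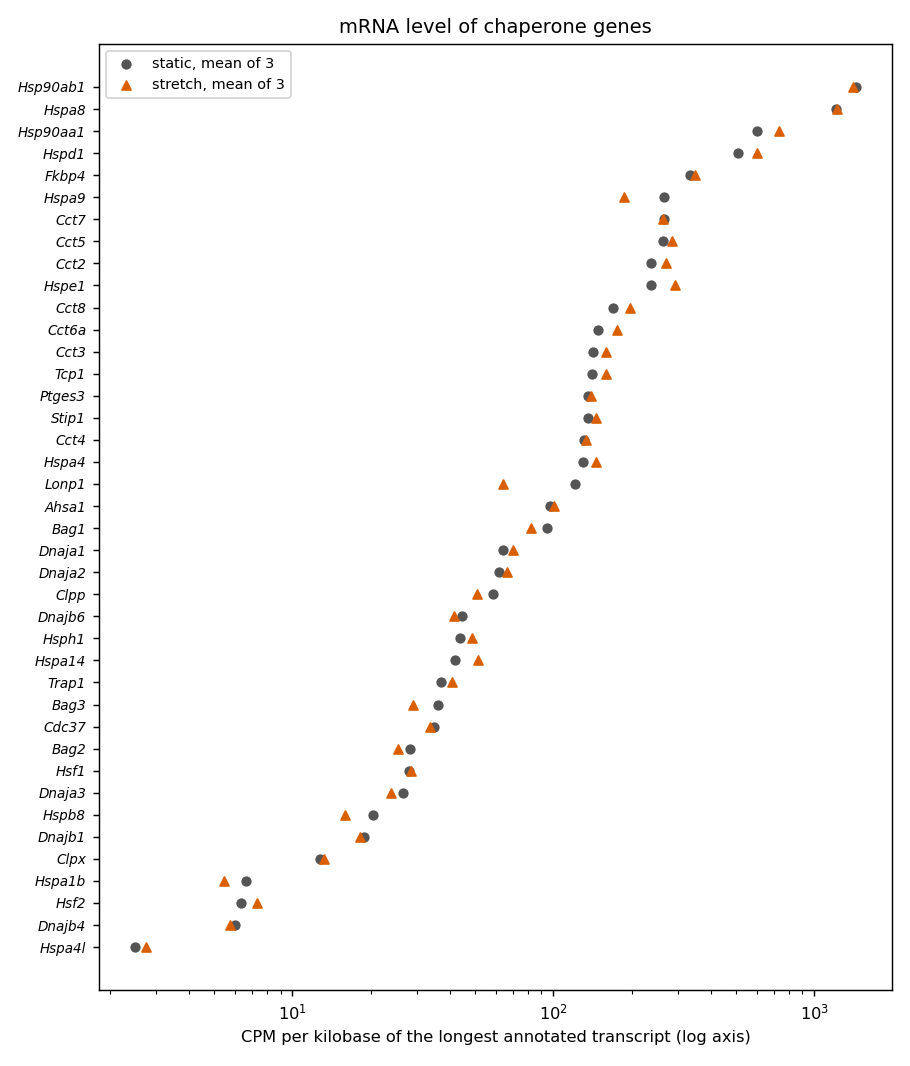
Mean CPM per kilobase of the longest annotated transcript (x axis, log scale) of the 40 tested chaperone genes in static (circles, mean of 3) and stretched (triangles, mean of 3) libraries, ordered by the static level. The levels run from 2.49 (Hspa4l) to 1448 (Hsp90ab1) in static cells, and the widest gaps between the 2 symbols are those of Lonp1 and Hspa9.

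Of 102 other tested chaperone genes in 6 lists, 34 were called higher and 31 lower, where 24.9% and 25.9% of all tested genes were; the counts of each list are to be read against these shares. Among other partners of HSP90 and HSP70, 12 of 27 rose and 5 fell, with Ppid, a cyclophilin bound to HSP90 (log2 fold change 0.40, adjusted p = 2.45e-07), and Cacybp, a binding protein of the ligase SIAH1 (0.40), foremost among the increases. Pih1d1, of the R2TP complex, and Fkbp8, an anti-apoptotic prolyl isomerase, fell by 0.60 and 0.34. Prefoldin hands actin and tubulin to CCT. Of 12 genes in a list of prefoldin and chaperonin partners 7 rose, among them Pfdn4 (0.50) and Naca (0.29), and 1, Uri1, fell by 0.20. DESeq2 called 5 and 1. Naca and Btf3 in this list are neither prefoldin nor chaperonin partner genes. The medians of these 2 lists were 0.08 and 0.13.

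Of 28 other J protein genes, 9 rose, with the lowest p for the ribosome-bound Dnajc2 (0.33) and for Dnajc7 (0.21), and 8 fell, with the lowest p for Dnajb2 (-0.47) and Dnajb12 (-0.34). DESeq2 called 5 higher and 4 lower, and scaling by library size alone 11 and 3. Dnajc2 is the J partner of the HSP70 encoded by Hspa14, and both rose. Of 16 other mitochondrial chaperones and proteases, 6 rose, among them the inner membrane protease gene Yme1l1 and the presequence processing peptidase gene Pmpca (0.22 each), and 3 fell, among them the disaggregase gene Clpb (-0.35) and the iron-sulphur co-chaperone gene Hscb (-0.29); DESeq2 called 5 and 1. Of 10 other HSP70, small heat shock protein and HSF genes 0 rose (1 at an unadjusted p under 0.05, and 0 called by DESeq2 or limma-voom) and 5 fell, with Hspb7 and Hspb6, small heat shock proteins best known from muscle, lower by 0.99 and 0.38. Upper quartile factors, scaling by library size alone and the GC and length offset each called 1 of the 10 higher.

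A list of chaperone genes of the endoplasmic reticulum, most of them paralogs of the members, gave a different count. Serpinh1 and Sil1 in this list are not such paralogs (log2 fold changes -0.35 and -0.50). All 9 tested genes fell, where 25.9% of all genes were called lower, by a median of 0.35 on the log2 scale, and 8 of them were called lower when scaled by library size alone. Hyou1, the HSP110 of that compartment, fell by 0.60 from 640.2 ± 26.4 to 421 ± 8.62 CPM, and Dnajb9, a J protein there, fell by 0.86 from 40.2 ± 0.578 to 22.3 ± 1.85 CPM (mean ± SD, n = 3 per group). Of the 33 tested members outside the mitochondrial set, 13 rose and 7 fell, against 24.9% and 25.9% of all genes. Those that fell include Dnaja3, whose protein is mitochondrial. The difference between the compartments was not tested.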

How the data were processed

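RNA of 3 static and 3 stretched B16F10luc2 samples was compared, grouped by the condition in the labels. The authors deposited unscaled estimated counts of each gene, given as whole numbers. The submitters' processing notes name Salmon 1.4.0, mm10 and GRCm38, without saying what each was used for. Estimated counts share reads of similar transcripts by a model, so near-identical genes are uncertain. The sources used here give neither strand nor the step from transcripts to genes.

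RefSeq (GRCm38.p6) matched 14875 of 14883 gene numbers to symbols. GC content and length came from the longest GENCODE M21 transcript. In edgeR 4.0.16 (R 4.3.3), filterByExpr with a minimum count of 10 kept 12377 genes and removed 2506. TMM factors were 0.966 to 1.02 and the biological coefficient of variation was 3.6%. Two-sided quasi-likelihood tests were fitted with the group alone (4 residual degrees of freedom), and genes were called at a Benjamini-Hochberg adjusted p under 0.05. Log2 fold changes are stretch over static. The procedure was tested on simulated data in which few genes changed. In these libraries 50.9% of tested genes were called, so that simulation says nothing of how sound the calls here are.

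The members and the gene lists were chosen with earlier results of these data known. Per-library values were given, by rule, for Hsf1, Hsf2, Hspa1a, Hspa1b and, in each family, the most abundant tested gene, up to 3 called genes of lowest p in the main direction and 1 in the other. From each list of other genes, the 2 called genes of lowest p in each direction were named. In the mitochondrial family, with 3 calls each way, the higher direction was taken as the main one. Alternatives were RLE, upper quartile and library-size scaling, DESeq2 1.42.0, limma-voom (limma 3.58.1), no count filter, a minimum of 5 CPM in at least 3 libraries, glmTreat against 1.2-fold, a replicate block, an offset for GC content and length (spline with 5 degrees of freedom), Hspa1a and Hspa1b summed, a pseudocount of 5 in ratios, and each library left out. The offset was included because earlier results of these data were known.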

Additional observations from a re-analysis of the deposited data

How the results depend on the processing

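Against a null of a 1.2-fold change, glmTreat called 0 members higher, 2 lower and 1592 genes in all. In the other alternatives the members called higher ranged from 12 to 21 and those called lower from 8 to 10, each within 1.5 times the reported count. Leaving out 1 library gave 12 to 17 higher and 8 to 10 lower members. With a replicate block, 16 members were called higher, 10 lower and 5967 genes in all. The replicate numbers do not pair the samples: same-numbered libraries deviated from their group means with correlations of -0.0118, 0.00505 and -0.077. Of the member values under alternatives, 597 kept direction and call, 53 lost a call, 16 gained one and 14 changed sign. Those that changed sign were uncalled genes: by library size alone Hsp90ab1 (log2 fold change 0.0194), Cdc37 (0.0145), Dnajb1 (0.0184) and Cct7 (0.048); by upper quartile factors Cct7 (0.0021); with the GC and length offset Ptges3 (-0.0543), Hspa8 (-0.0276), Hspa4l (-0.0496), Dnajb1 (0.0199), Cct4 (-0.037) and Clpx (-0.012). Leaving out 1 library gave -0.034 (without static library 3) to 0.0699 for Hspa8, -0.0171 (without static library 3) to 0.059 for Cct4 and -0.0594 to 0.0307 (without static library 2) for Cct7. The cause of these shifts was not tested. Calls held in every alternative except glmTreat for 17 members, 10 higher and 7 lower. The alternatives of the pair ratios (1 library left out, a pseudocount of 5) could hardly move them and say nothing of their stability. With 3 libraries per group no rank or permutation test passes 0.05, and Hspa1a and Hspb1 were too low to test at this depth.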

Other observations

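2 relatives of the members outside the 42 were abundant in these cells and lower under stretch; they were chosen after their values were seen. Cryab, the small heat shock protein alpha B-crystallin, was at 275, 285 and 260.4 CPM in static and at 242, 246 and 249 CPM in stretched libraries (log2 fold change -0.16, edgeR adjusted p = 0.00353). Hsf4, a heat shock factor best known from the lens, was at 140.03, 135 and 129 CPM in static and at 111, 109 and 107 CPM in stretched libraries (log2 fold change -0.30, edgeR adjusted p = 1.74e-05).

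Of 9892 tested genes with a promoter sequence, 54 held a match to 3 alternating heat shock units, members included. Of these 54, 19 (35.2%) were called higher and 10 (18.5%) lower, against 25.4% and 26.5% of the 9892. For the 1350 genes with a match to 2 units the shares were 25.2% and 25.8%. These counts describe the libraries and carry no test.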
